A study of Rattus norvegicus with 20 samples.

Results

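The 7 subunits of respiratory complex I that are encoded by mitochondrial DNA were examined in the ventricle of control and diabetic WT and Vegfb KO rats. They were picked by their Ensembl gene IDs: Mt-nd1 (ENSRNOG00000030644), Mt-nd2 (ENSRNOG00000031033), Mt-nd3 (ENSRNOG00000033615), Mt-nd4 (ENSRNOG00000029707), Mt-nd4l (ENSRNOG00000031053), Mt-nd5 (ENSRNOG00000029971) and Mt-nd6 (ENSRNOG00000029042). All 7 were among the 24059 IDs of the count table, and all 7 were among the 14293 genes tested after a filter on low counts. The table gives IDs without symbols, so the symbols rest on the list by which the genes were chosen.

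Male rats aged 9 weeks were compared in 4 groups of 5. WTC and WTD stand for WT rats without and with diabetes, and KOC and KOD for Vegfb KO rats without and with diabetes. The Vegfb KO is global, made with zinc finger nucleases and with lacZ (beta-galactosidase) inserted into the gene, and the WT rats were littermates. Diabetes was induced with intravenous streptozotocin, which destroys pancreatic beta cells, at 55 mg/kg, and hearts were taken on day 4. RNA-seq of ventricle gave totals of 7220469 to 26664479 estimated counts per library (median 20746736), of which 212121 to 1598844 fell on the 7 subunits. Vegfb itself and the markers of heart muscle were not looked up, because the IDs could not be paired with names. ENSRNOG00000021156, the ID with the lowest log2 fold change between Vegfb KO and WT in controls and in diabetic rats, chosen after its values were seen, had 1020 to 3845 counts in the WT libraries and 0 to 25 in the Vegfb KO libraries, with log2 fold changes of -8.11 and -8.45 (edgeR adjusted p = 1.96e-14 and 6.82e-14), and every library was on the side of its labelled genotype.

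Complex I, the NADH:ubiquinone oxidoreductase, takes electrons from NADH into the respiratory chain and pumps protons across the inner mitochondrial membrane. The mitochondrially encoded subunits form the core of its membrane arm, while the remaining subunits come from nuclear genes. Heart muscle is rich in mitochondria, and mitochondrial transcripts are a large part of its RNA. All but Mt-nd6 are read from the same strand of mitochondrial DNA and released from a long shared transcript, Mt-nd4l and Mt-nd4 stay together on 1 messenger RNA with overlapping reading frames, and Mt-nd6 lies on the opposite strand beside Mt-nd5. The library kit keeps the strand, but the strand setting of the counting was not given in the sources used here, so reads of Mt-nd5 and Mt-nd6, and reads shared with nuclear copies of mitochondrial DNA, may be divided with error. How messenger RNA was selected was also not given.

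The summed share of the library on the 7 subunits was 6.18, 7.24, 8.82, 4.46 and 5.29% in WTC rats 1 to 5, and 5.02, 2.82, 4.32, 4.74 and 6.49% in WTD rats 1 to 5. It was 8.68, 6.52, 5.04, 5.57 and 5.04% in KOC and 2.94, 5.25, 6.15, 3.46 and 4.41% in KOD. WTC replicate 3 and KOC replicate 1 were the highest, WTD replicate 2 and KOD replicate 1 the lowest, and each diabetic group overlapped its control group. The means were 6.40% ± 1.70 in WTC, 4.68% ± 1.32 in WTD, 6.17% ± 1.53 in KOC and 4.44% ± 1.30 in KOD (SD, n = 5). No test was made of this sum. Counting error was small beside the spread between rats: in the shallowest library, KOD replicate 1, the 95% Wilson interval of the share ran from 2.93 to 2.95%, which covers counting error only. In whole tissue, fewer mitochondria or fewer heart muscle cells and less RNA per cell cannot be told apart.

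Both libraries with the lowest summed share also had a large part of their counts on a single other ID. ENSRNOG00000065867 took 23.3% of the counts in WTD replicate 2 and 25.5% in KOD replicate 1, against 0.114 to 5.28% in the other libraries. With its counts left out of the totals, the mean summed share was 6.42% ± 1.70 in WTC, 4.88% ± 1.05 in WTD, 6.27% ± 1.49 in KOC and 4.69% ± 1.11 in KOD. Levels are therefore given below as TMM CPM, counts in CPM after trimmed mean of M values normalization, which scales each library by a composition factor. That factor was 0.729 and 0.693 in those 2 libraries and 0.935 to 1.17 in the others. Gene lengths were not used, so levels are compared only for the same gene across libraries.

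**Figure D1:**
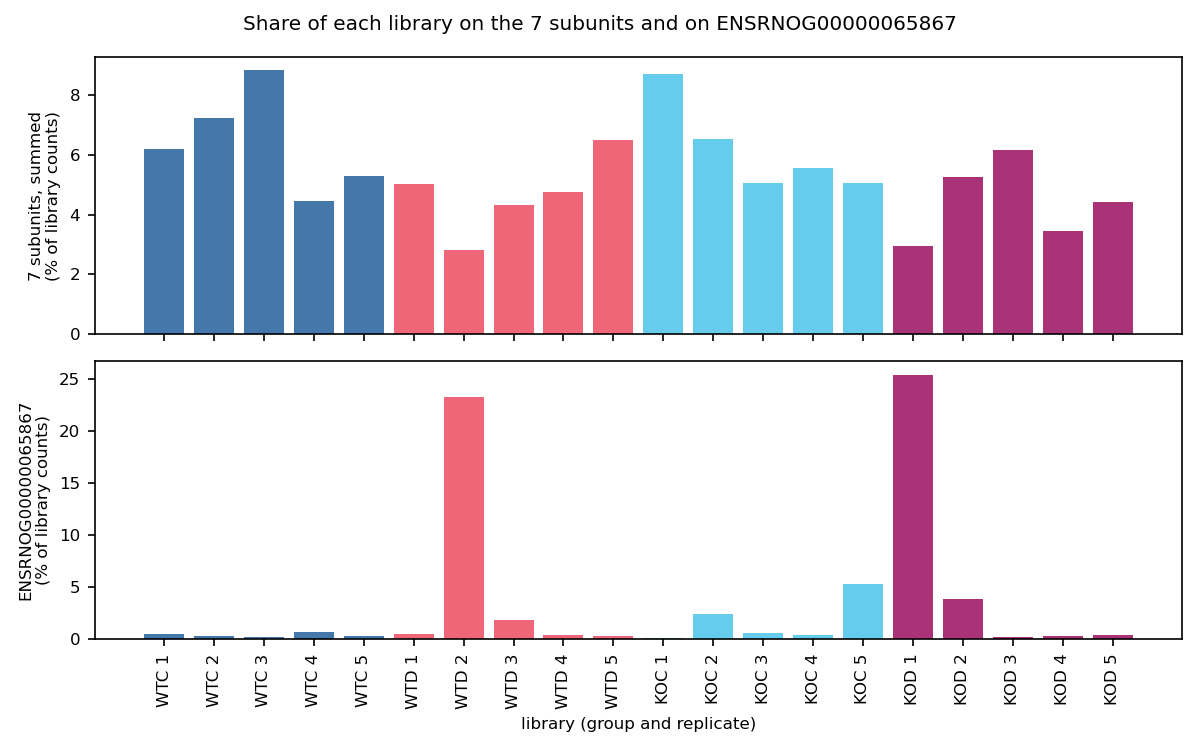
Share of the estimated counts of each library, in percent, on the 7 subunits together (upper bars) and on ENSRNOG00000065867 (lower bars), for 5 rats in each of 4 groups. WTC replicate 3 reached 8.82% on the subunits, and WTD replicate 2 and KOD replicate 1 carried 23.3 and 25.5% on the single ID.

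Whether diabetes moved the 7 transcripts in WT hearts was asked first. Mt-nd2, a proton-pumping subunit of the membrane arm, had 18012, 20387, 26106, 12374 and 13584 TMM CPM in WTC rats 1 to 5 and 12979, 9202, 10308, 10917 and 16817 in WTD rats 1 to 5. All 5 WTD values lay below the WTC mean and 3 lay below the lowest WTC value, but WTD replicate 5 was above 2 of the controls. The means were 18093 ± 5534 and 12044 ± 3001 TMM CPM (SD, n = 5), a log2 fold change of -0.59 (SE 0.23, 95% interval -1.06 to -0.12), with an edgeR adjusted p of 0.0902.

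Mt-nd1, which sits where the membrane arm meets the quinone-binding site, had 15270, 16805, 19819, 11787 and 12857 TMM CPM in WTC and 12165, 10390, 10757, 12338 and 15386 in WTD. Here 4 of 5 WTD values were under the WTC mean, and the groups overlapped. The log2 fold change was -0.33 (SE 0.16), with an edgeR adjusted p of 0.179. Mt-nd5, another proton-pumping subunit, had 6135, 7529, 10371, 4666 and 5466 TMM CPM in WTC and 5190, 4698, 4160, 4677 and 7137 in WTD. Only WTD replicate 3 was below the lowest control. Its log2 fold change was -0.40 (SE 0.21, edgeR adjusted p = 0.229).

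None of the 7 subunits (0 of 7) was called lower or higher in WTD than in WTC by edgeR, where called means a Benjamini-Hochberg adjusted p under 0.05 over all genes and an absolute log2 fold change above 0.27. In the same comparison 13.1% of all genes tested were called. At an unadjusted p under 0.05 the number was 2 of 7 (Mt-nd1 and Mt-nd2), against 27% of all genes. DESeq2 called 0 of 7, with 2065 genes called in all. All 7 log2 fold changes were below 0, against 48.3% of all genes, and ran from -0.59 for Mt-nd2 to -0.33 for Mt-nd1. Their median was -0.40, while the median over all genes was 0.011. The median of the 7 was -0.20 without WTC replicate 3, where Mt-nd1 was at -0.22, Mt-nd5 at -0.20 and Mt-nd2 at -0.42, and -0.62 without WTD replicate 5. The adjusted p ran up to 0.553, for Mt-nd4l. Leaving out WTC replicate 4 or WTD replicate 5 each gave 1 called subunit, Mt-nd2, with an edgeR adjusted p of 0.04996 and 0.0403. In those 2 fits 11.5% and 11.1% of all genes tested were called. Over all alternatives the adjusted p of Mt-nd2 ranged from 0.0403 to 0.228.

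In Vegfb KO hearts the question was the same. Mt-nd2 had 25323, 19000, 13509, 15250 and 13830 TMM CPM in KOC rats 1 to 5, and 10558, 14358, 15196, 7649 and 11108 in KOD rats 1 to 5. KOC replicate 1 was high, KOD replicate 4 was low, and 3 of 5 KOD values lay below every KOC value. Its log2 fold change was -0.56 (SE 0.23, edgeR adjusted p = 0.142). Mt-nd5 had 10444, 6979, 5594, 5628 and 5594 TMM CPM in KOC and 4949, 5011, 5973, 3634 and 4155 in KOD. Here 4 of 5 KOD values were below the lowest control and KOD replicate 3 was above 3 of them. The log2 fold change was -0.53 (SE 0.21, edgeR adjusted p = 0.138).

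Mt-nd1 had 19933, 16297, 13024, 14256 and 13254 TMM CPM in KOC and 10573, 13749, 14583, 9456 and 10757 in KOD. The groups overlapped through KOD replicates 2 and 3, and the log2 fold change was -0.38 (SE 0.16, edgeR adjusted p = 0.154). Mt-nd4l, the smallest membrane subunit of the set, had 3041, 1169, 696, 930 and 982 TMM CPM in KOC and 892, 852, 990, 224 and 641 in KOD. KOC replicate 1 stood far above the other controls and KOD replicate 4 far below the other diabetic rats. The log2 fold change of -0.92 (SE 0.49, edgeR adjusted p = 0.294) became -0.39 without KOC replicate 1.

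The edgeR test called 0 of 7 subunits between KOD and KOC, against 7.84% of all genes tested. At an unadjusted p under 0.05 it was 3 of 7 (Mt-nd1, Mt-nd2 and Mt-nd5), against 21.4% of all genes. DESeq2 called 0 of 7, with 1310 genes called in all. All 7 log2 fold changes were again below 0, against 48.5% of all genes, and ran from -0.92 to -0.38. Their median was -0.53, against 0.0085 over all genes, and their edgeR adjusted p-values were 0.138 to 0.364. Without KOC replicate 1 the median was -0.33, with Mt-nd5 at -0.33, Mt-nd2 at -0.39 and Mt-nd1 at -0.27. The 2 diabetes comparisons share no libraries.

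**Figure D2:**
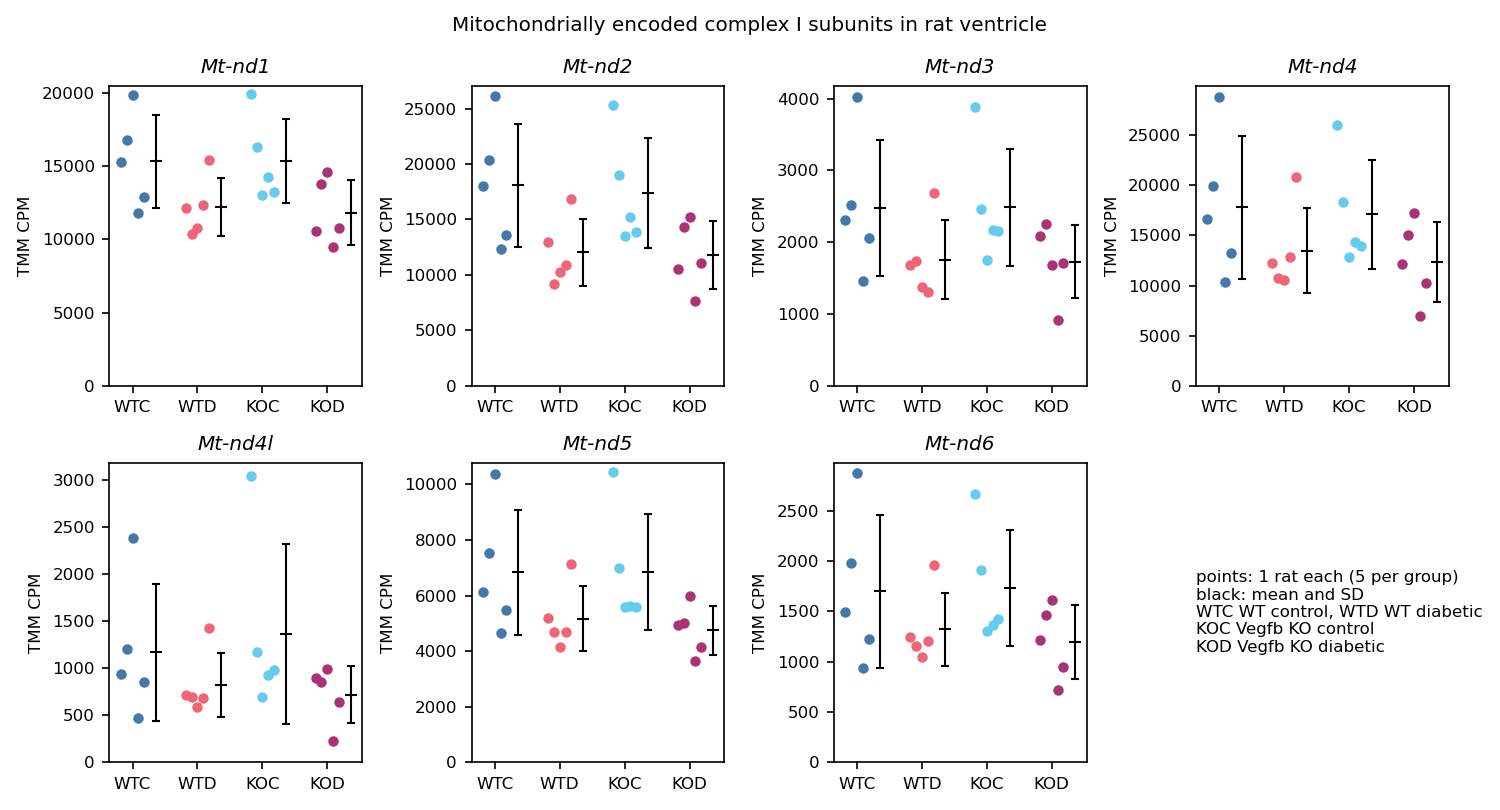
TMM CPM of each of the 7 subunits in every rat (points), with the mean and SD of each group of 5 in black, on axes that start at 0. Each diabetic group overlaps its control group for every subunit, as for Mt-nd2, where WTD reached 16817 and WTC went down to 12374.

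Because neither comparison called a subunit, while all 7 values were below 0 in both, the mean of the 2 diabetes contrasts was taken in the same edgeR fit. The 7 values are not separate observations, because each subunit followed the mean of the others over the 20 libraries (Pearson r 0.938 to 0.984). This comparison was added after those results were seen, it rests on the same libraries, and it was not among the 5 comparisons of the design. It called 3 of 7 subunits lower in diabetic rats, against 16.2% of all genes tested (8.3% lower). Mt-nd2 had a log2 fold change of -0.57 (SE 0.16, edgeR adjusted p = 0.0116), Mt-nd1 of -0.35 (SE 0.11, edgeR adjusted p = 0.0227) and Mt-nd5 of -0.47 (SE 0.15, edgeR adjusted p = 0.027). The other 4 had values of -0.71 to -0.44 and adjusted p-values of 0.0783 to 0.151. DESeq2 also called 3, with 2478 genes called in all.

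That count moved with single libraries. It was 1 (Mt-nd2) without KOC replicate 1 and also without the 2 libraries rich in ENSRNOG00000065867, and 2 without WTC replicate 3, WTD replicate 2 or KOD replicate 4, each of which ended the call of Mt-nd5. In these 3 cases Mt-nd5 had log2 fold changes of -0.37, -0.45 and -0.42, and without KOC replicate 1 it was at -0.36 and Mt-nd1 at -0.30. It was 4 without WTC replicate 4 and 5 without WTD replicate 5. The share of all genes called in these fits is not given here, so these counts stand without a background. Over all alternatives the adjusted p ran from 0.00452 to 0.0458 for Mt-nd2, from 0.00786 to 0.158 for Mt-nd1 and from 0.0102 to 0.0667 for Mt-nd5. With library totals in place of TMM, Mt-nd1 was not called, at a log2 fold change of -0.349, and Mt-nd3 was, at -0.529. Without the 2 libraries rich in ENSRNOG00000065867, Mt-nd1 was at -0.311 and Mt-nd5 at -0.462. The lowest value, -0.71 for Mt-nd4l, was -0.45 without KOC replicate 1.

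The remaining subunits are given by their ranges. Mt-nd4, a proton-pumping subunit, ran from 6982 (KOD replicate 4) to 28783 TMM CPM (WTC replicate 3), with log2 fold changes of -0.40 (SE 0.28) in WT and -0.47 (SE 0.28) in Vegfb KO. Mt-nd3 ran from 922 to 4021 TMM CPM in the same 2 libraries, with -0.49 (SE 0.28) and -0.52 (SE 0.28). Mt-nd6, the subunit of the opposite strand, ran from 723 to 2872 TMM CPM, again between KOD replicate 4 and WTC replicate 3. Its log2 fold changes were -0.36 (SE 0.30) and -0.54 (SE 0.30). In WT, Mt-nd4l had a log2 fold change of -0.51 (SE 0.48). Without WTC replicate 3 the values in WT were -0.16 for Mt-nd4, -0.25 for Mt-nd3, -0.093 for Mt-nd6 and -0.073 for Mt-nd4l. Without WTD replicate 5 they were -0.62 for Mt-nd4, -0.55 for Mt-nd6 and -0.80 for Mt-nd4l. In Vegfb KO, without KOC replicate 1, they were -0.27 for Mt-nd4, -0.30 for Mt-nd3 and -0.33 for Mt-nd6.

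**Figure D3:**
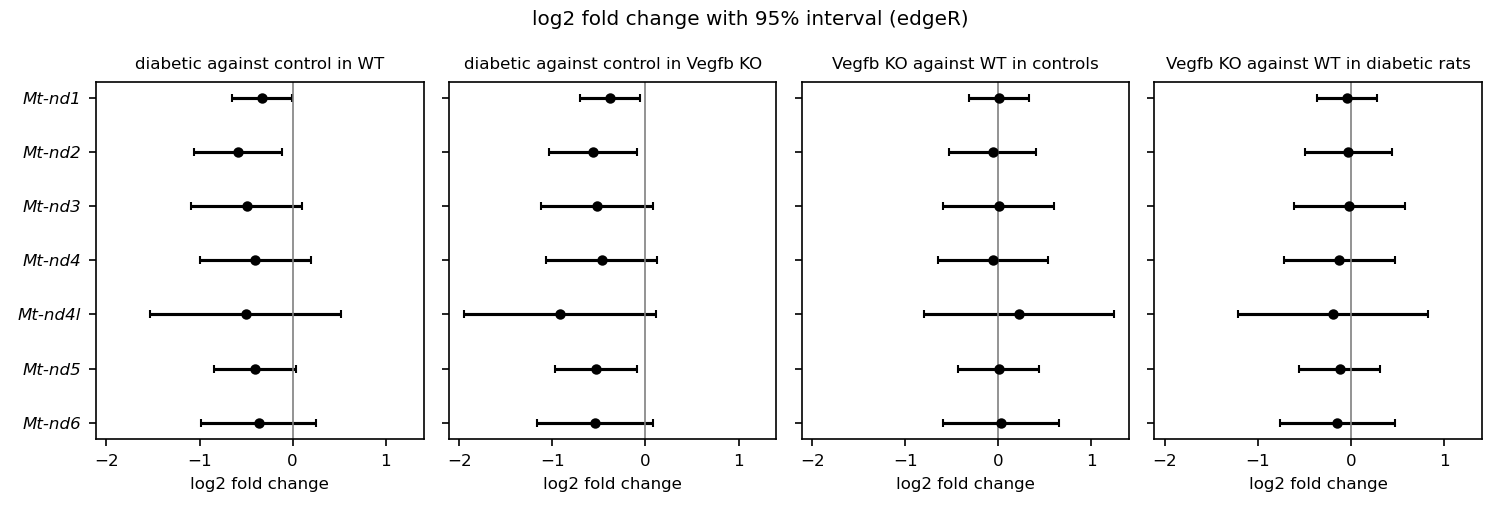
Log2 fold change of each subunit (points) from edgeR with a 95% interval (bars) derived from its F statistic. The panels are the 2 diabetes comparisons and the 2 genotype comparisons. All points of the diabetes panels lie left of 0, from -0.92 to -0.33, and the points of the genotype panels lie between -0.19 and 0.22.

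The genotype comparisons asked whether loss of Vegfb moved the same transcripts. In controls, Mt-nd2 averaged 18093 ± 5534 TMM CPM in WTC and 17382 ± 4946 in KOC, and Mt-nd1 averaged 15308 ± 3202 and 15353 ± 2868 (SD, n = 5). The log2 fold changes of the 7 subunits had a median of 0.0042 and ran from -0.058 to 0.22, the highest being Mt-nd4l (95% interval -0.80 to 1.25). edgeR called 0 of 7, against 0.028% of all genes tested, with 0 at an unadjusted p under 0.05, against 3.69% of all genes. DESeq2 called 0 of 7, with 5 genes called in all. For Mt-nd1, the subunit with the smallest SE, the interval ran from -0.32 to 0.33, and the intervals of the other 6 were wider. All 7 log2 fold changes were above 0 without WTC replicate 3, from 0.11 to 0.66, and below 0 without KOC replicate 1, from -0.31 to -0.11.

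Among diabetic rats, Mt-nd2 averaged 12044 ± 3001 TMM CPM in WTD and 11774 ± 3055 in KOD, and Mt-nd5 averaged 5172 ± 1157 and 4744 ± 895 (SD, n = 5). The log2 fold changes ran from -0.19 to -0.022, with a median of -0.12. Without WTD replicate 5 all 7 were above 0, from 0.019 to 0.18. edgeR called 0 of 7, against 0.042% of all genes, with 0 at an unadjusted p under 0.05, against 8.99% of all genes. DESeq2 called 0 of 7, with 65 genes called in all.

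The interaction, which tests whether the diabetes contrast differs between the genotypes, called 0 of 7 subunits and 0% of all genes tested at an edgeR adjusted p under 0.05. No subunit was under an unadjusted p of 0.05 (0 of 7), against 4.20% of all genes. DESeq2 called 0 of 7, with 0 genes called in all. The largest value was that of Mt-nd4l, -0.42 with an SE of 0.68 and a 95% interval of -1.86 to 1.03. It became 0.11 without KOC replicate 1, where all 7 were above 0. Without WTC replicate 3 all 7 were below 0, with a median of -0.31. For Mt-nd2 the interaction was 0.025 (95% interval -0.64 to 0.69), an interval too wide to show that the genotypes respond alike.

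The share of the library was lower on average in the diabetic than in the control group for each of the 7 subunits in both genotypes. Mt-nd2 took 1.83% ± 0.460 of the counts in WTC, 1.21% ± 0.363 in WTD, 1.72% ± 0.432 in KOC and 1.19% ± 0.372 in KOD (SD, n = 5), with a two-sided exact permutation p of 0.0556 for diabetes in WT and 0.0794 in Vegfb KO. Mt-nd5 took 0.690% ± 0.185, 0.515% ± 0.131, 0.678% ± 0.183 and 0.474% ± 0.110, with an exact permutation p of 0.119 and 0.0476. Over the 28 such tests, 7 subunits in 4 comparisons, the lowest Benjamini-Hochberg adjusted p was 0.356. The smallest p that 5 against 5 can give is 0.00794, so with this adjustment no subunit could be called alone: any call needs at least 5 of the 28 tests to pass together.

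The 7 transcripts varied widely between rats of 1 group. The within-group SD of log2 TMM CPM was 0.263 for Mt-nd1, 0.359 for Mt-nd5, 0.390 for Mt-nd2, 0.471 for Mt-nd3, 0.477 for Mt-nd4, 0.481 for Mt-nd6 and 0.774 for Mt-nd4l. Over all 14293 genes tested the median was 0.210, and the subunits varied more than 63.3% (Mt-nd1) to 95.6% (Mt-nd4l) of them. Over the 1132 genes with a mean of at least 100 CPM the median was 0.151, and the shares were 91.3 to 99.0%. The SE of the log2 fold changes for diabetes in WT was 0.16 to 0.48, against a median of 0.128 over all genes.

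Most of this variation was shared by the subunits. In 13 of 20 libraries all 7 lay on the same side of their group mean, above it in 6 and below it in 7. WTC replicate 3 was highest, at a mean deviation of 0.76 on the log2 scale, followed by KOC replicate 1 at 0.72 and WTD replicate 5 at 0.60. KOD replicate 4 was lowest, at -0.72, followed by WTC replicate 4 at -0.65. The totals of these 5 libraries were 18133390, 18334499, 23399247, 13099392 and 26664479. The part of depth in this spread was not tested. Each subunit followed the mean of the other 6, with Pearson r of 0.938 (Mt-nd3) to 0.984 (Mt-nd4) over 20 libraries, a description of libraries that share depth and scaling.

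Mt-nd4l had the widest range, 13.6-fold from 224 TMM CPM in KOD replicate 4 to 3041 in KOC replicate 1, against 2.11-fold for Mt-nd1. Without KOD replicate 4 its range was 6.47-fold. Even relative to Mt-nd4, with which it shares a messenger RNA, it moved: the ratio of estimated counts was 0.0562, 0.0606, 0.0827, 0.0455 and 0.0643 in WTC rats 1 to 5 and 0.0585, 0.0647, 0.0559, 0.0534 and 0.0684 in WTD. It was 0.117, 0.0636, 0.0544, 0.0650 and 0.0704 in KOC and 0.0737, 0.0566, 0.0577, 0.0321 and 0.0624 in KOD. The extremes, 3.64-fold apart, were KOC replicate 1 and KOD replicate 4, the libraries in which Mt-nd4l itself was highest and lowest. The ratio of Mt-nd4l to Mt-nd1 spanned 6.43-fold, or 3.82-fold without KOD replicate 4, while those of Mt-nd3, Mt-nd4, Mt-nd6, Mt-nd2 and Mt-nd5 to Mt-nd1 spanned 2.08, 1.97, 1.90, 1.63 and 1.44-fold. How the overlap of Mt-nd4l and Mt-nd4 was counted was not given, and its part was not tested.

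**Figure D4:**
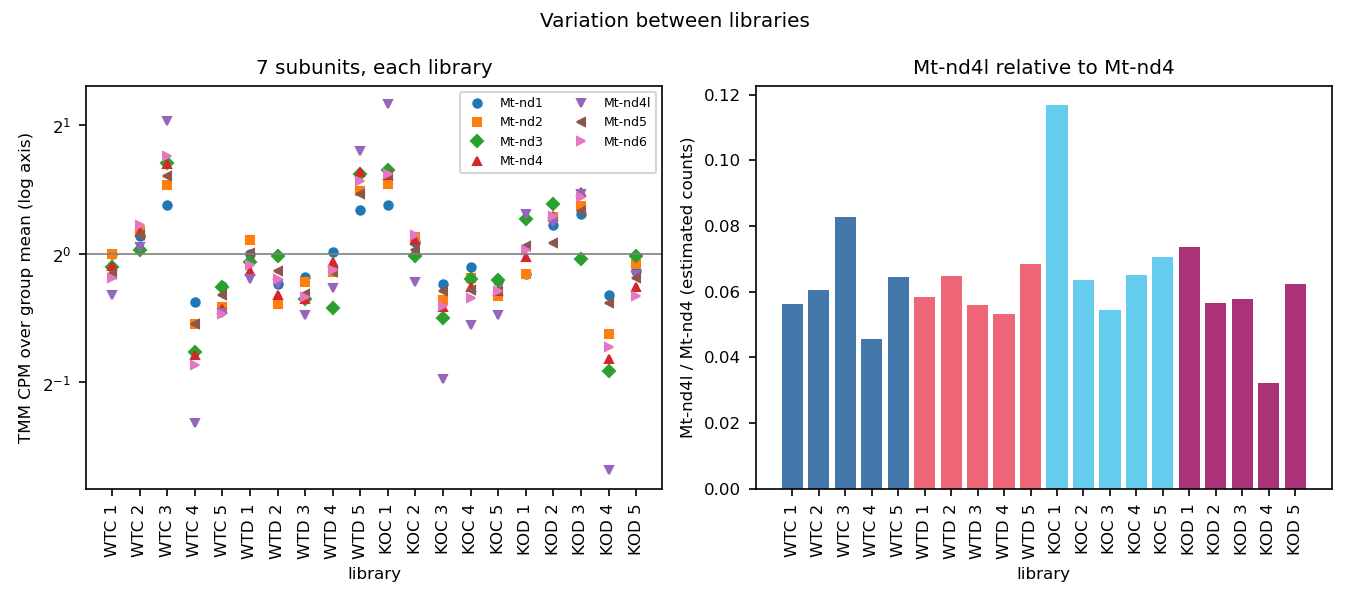
Left, TMM CPM of each subunit in each library over the mean of its group (log axis); right, ratio of the estimated counts of Mt-nd4l to Mt-nd4 in each library. The subunits move together, with WTC replicate 3, WTD replicate 5 and KOC replicate 1 high and WTC replicate 4 and KOD replicate 4 low, and the ratio runs from 0.0321 to 0.117.

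As a part of the counts of the 7 subunits, Mt-nd2 made up 28.7% ± 0.972 in WTC and 25.7% ± 1.64 in WTD, and 27.9% ± 0.639 in KOC and 26.5% ± 1.21 in KOD (SD, n = 5). The exact permutation p was 0.0238 in WT and 0.0556 in Vegfb KO, with adjusted values of 0.667 and 0.778 over 28 tests. Mt-nd1 went the other way in the means, at 24.8% ± 2.63 and 26.4% ± 1.93 in WT, and 25.1% ± 2.01 and 27.1% ± 2.82 in Vegfb KO, within the spread between rats.

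The IDs outside the set whose log2 TMM CPM was most like the mean of the 7 subunits over the 20 libraries were ENSRNOG00000031979 (Pearson r 0.967) and ENSRNOG00000033299 (Pearson r 0.951). ENSRNOG00000031979 averaged 26832 ± 6059 TMM CPM in WTC, 21129 ± 4745 in WTD, 25957 ± 5825 in KOC and 20420 ± 4241 in KOD (SD, n = 5). Its log2 fold change with diabetes was -0.34 (SE 0.18) in WT and -0.35 (SE 0.18) in Vegfb KO, with edgeR adjusted p-values of 0.223 and 0.27. ENSRNOG00000033299 averaged 2541 ± 1852, 1484 ± 1041, 2509 ± 1984 and 1498 ± 882 TMM CPM. Its log2 fold change with diabetes was -0.78 (SE 0.68) in WT and -0.74 (SE 0.68) in Vegfb KO, with edgeR adjusted p-values of 0.510 and 0.581. Neither ID was called in any of the comparisons. In the added mean of both diabetes contrasts, ENSRNOG00000031979 was at -0.35 (SE 0.13, edgeR adjusted p = 0.0516) and ENSRNOG00000033299 at -0.76 (SE 0.48, edgeR adjusted p = 0.280).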

How the data were processed

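From paired-end directional libraries the authors made a table of estimated counts, with 1 value for each Ensembl ID and library. The submitters' processing notes name kallisto, edgeR, DESeq2 and the build mRatBN7.2. Program versions and the strand setting were not given in the sources used here. The estimated counts were rounded, and genes were filtered with filterByExpr by group. All 20 libraries were fitted together by group with edgeR 4.0.16 (TMM, robust quasi-likelihood F test, R 4.3.3). DESeq2 1.42.0 was an alternative, as were other scalings, no filter, fewer libraries and a replicate block. The mean of the 2 diabetes contrasts was added after the 5 planned comparisons had been seen to call no subunit, so 6 contrasts were run, and share tests with other denominators or left-out libraries, and ranges without single libraries, were also added after seeing the data, except shares of the subunits' own counts. Shares were tested by two-sided exact permutation over samples. The code was tested on simulated counts. Replicates were separate rats, and no library was a duplicate (lowest chi-square per gene 5.94).

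The members and lists were chosen with earlier results of these data known. Genes named were the 7 members, the 2 other IDs with the highest Pearson correlation with the members' mean log2 TMM CPM (mean of at least 1 CPM), ENSRNOG00000065867 and 1 ID that fell. Lists of other mitochondrial genes, nuclear subunits, assembly factors, RNA turnover genes and cell type markers were not run, because the RefSeq table paired 0 of 24059 IDs with names. No sequence or gene length was used.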

Additional observations from a re-analysis of the deposited data

Results flagged for a closer look

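A library stood apart from the other 4 of its group in 15 of 120 group-by-measure checks (Dixon's ratio above 0.71). Chance gives about 1 in 20, and the measures overlap, so these are not 15 separate events.

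WTD replicate 5 was far above the other WTD rats for Mt-nd4 (20835 TMM CPM, next 12827), Mt-nd4l (1425, next 718), Mt-nd6 (1957, next 1244), the summed TMM CPM of the 7 subunits (66250, next 46239), ENSRNOG00000031979 (29241) and ENSRNOG00000033299 (3343). KOC replicate 1 was far above the other KOC rats for Mt-nd5 (10444 TMM CPM) and Mt-nd4l, the latter as TMM CPM (3041), share of the library (0.289%), share of the subunits' counts (3.33%), ratio to Mt-nd4 (0.117) and ratio to Mt-nd1 (0.153). ENSRNOG00000065867 took 23.3% of the counts in WTD replicate 2 and 25.5% in KOD replicate 1, far above the other rats of each group. WTD replicate 1 had the lowest total of its group, 12965611, against 20780650 for the next.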

How the results depend on the processing

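No subunit was called (0 of 7) in any of the 5 planned comparisons under DESeq2, other scalings, no filter, only the libraries compared (not possible for the interaction), the adjusted p alone, or without the 2 libraries rich in ENSRNOG00000065867. Leaving out 1 library gave 0 to 1 for diabetes in WT and 0 elsewhere. The added mean of both diabetes contrasts gave 3 in most settings, 1 without the 2 libraries, and 1 to 5 when 1 library was left out. The cause was not tested, and the share of all genes called in those settings is not given here. All diabetes log2 fold changes of the 7 subunits kept their sign under every alternative, but their size moved when 1 library was left out. In WT they ran from -0.42 to -0.22 for Mt-nd1, -0.74 to -0.42 for Mt-nd2, -0.70 to -0.25 for Mt-nd3, -0.62 to -0.16 for Mt-nd4, -0.80 to -0.073 for Mt-nd4l, -0.55 to -0.20 for Mt-nd5 and -0.55 to -0.093 for Mt-nd6. In Vegfb KO they ran from -0.46 to -0.27 for Mt-nd1, -0.67 to -0.39 for Mt-nd2, -0.64 to -0.30 for Mt-nd3, -0.62 to -0.27 for Mt-nd4, -1.09 to -0.39 for Mt-nd4l, -0.63 to -0.33 for Mt-nd5 and -0.67 to -0.33 for Mt-nd6. The difference in summed share with diabetes was -1.72 percentage points in WT and -1.73 in Vegfb KO. It was -1.54 and -1.58 without the counts of ENSRNOG00000065867, and -1.25 and -1.35 without the 2 libraries. With 1 library left out it ran from -2.20 to -1.12 in WT, the latter without WTC replicate 3, and from -2.15 to -1.10 in Vegfb KO, the latter without KOC replicate 1. The genotype difference changed sign with single libraries: it was -0.227 in controls, with a range of -0.855 to 0.378, and -0.235 in diabetic rats, with a range of -0.700 to 0.219. The tests of single shares called 0 of 28 under each alternative, in a design where no subunit could be called alone, so these counts are no sign of stability.

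Genotype values changed sign with single libraries. In controls, leaving out 1 library gave log2 fold changes of -0.11 to 0.11 for Mt-nd1, -0.23 to 0.11 for Mt-nd2, -0.21 to 0.25 for Mt-nd3, -0.26 to 0.19 for Mt-nd4, -0.31 to 0.66 for Mt-nd4l, -0.20 to 0.20 for Mt-nd5 and -0.18 to 0.30 for Mt-nd6. Library totals gave -0.026 for Mt-nd1, -0.0198 for Mt-nd3 and -0.024 for Mt-nd5, and scaling without the members gave -0.00126 for Mt-nd5. In diabetic rats the ranges were -0.13 to 0.051 for Mt-nd1, -0.14 to 0.12 for Mt-nd2, -0.14 to 0.18 for Mt-nd3, -0.28 to 0.087 for Mt-nd4, -0.34 to 0.099 for Mt-nd4l, -0.22 to 0.019 for Mt-nd5 and -0.28 to 0.038 for Mt-nd6. For the interaction they were -0.16 to 0.061 for Mt-nd1, -0.14 to 0.20 for Mt-nd2, -0.27 to 0.19 for Mt-nd3, -0.31 to 0.14 for Mt-nd4, -0.85 to 0.11 for Mt-nd4l, -0.33 to 0.075 for Mt-nd5 and -0.45 to 0.033 for Mt-nd6, and Mt-nd2 was -0.025 without the 2 libraries. The cause was not tested.

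Replicate numbers gave no clear pairing of the rats. Deviations from group means over all genes tested had correlations of -0.257 to 0.264 in 20 pairs of same-numbered libraries, 7 over 0.1. In 4 of these 20 pairs the first library correlated best with the library of its own number in the second group. Libraries recur among the pairs, no reference for such correlations was made, and shared litters or handling were not tested. With the replicate block, 0 subunits were called in the 5 planned comparisons and 4 in the added one, and the interaction value of Mt-nd2 was -0.033. With this block 12.5% of all genes were called for diabetes in WT, and the share for the added comparison is not given here.

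Counting intervals of the summed share cover counting error only and carry nothing of the spread between rats.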
